A study of Mus musculus with 2 samples.

Results

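A set of 8 complement genes was followed through the layers of mouse skin: C1qa, C1qb, C1qc, C3, C4b, C7, Cfb and Serping1. They were chosen by symbol, and all 8 were found once among the 19465 genes measured. Spatial transcriptomics was performed on 2 skin sections, 1 from an S1pr2 fl/fl mouse (fl/fl) and 1 from a mouse that also carried K14-Cre (K14-Cre), and the question addressed here was which layers carried each gene and how the sections differed. Both mice carried floxed S1pr2 alleles, were 8 weeks old, were depilated on the back 1 day before treatment and received 62.5 mg of 5% imiquimod (IMQ) cream daily for 7 days. IMQ activates a Toll-like receptor and induces a psoriasis-like inflammation of mouse skin. Cre under the keratin 14 promoter is active in keratinocytes, so that the deletion is directed to the epidermis and its appendages and not to macrophages or fibroblasts. There was no untreated section and 1 section per genotype, so genotype, mouse and section cannot be told apart, and no test between the sections was possible.

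Complement is a cascade of serum and tissue proteins. C1q, built from the chains encoded by C1qa, C1qb and C1qc, recognizes antibodies and cell debris and starts the classical pathway, which cleaves C4 and C2 and then C3, whereas factor B joins C3b in the alternative pathway. C7 takes part in the membrane attack complex and Serping1 encodes the C1 inhibitor. In skin, macrophages and dendritic cells are the best known source of C1q, and fibroblasts of the dermis and fascia make many of the other components.

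In fl/fl, 1282 spots carried 5315351 unique molecular identifiers (UMIs, tags of single captured molecules) at a median of 3542.5 per spot, and in K14-Cre 981 spots carried 2845826 at a median of 2319. A spot covers several cells, and fewer cells of a type cannot be told apart from less RNA per cell. Levels are given as UMIs per 1000000 UMIs of the same spots (CPM) with 95% Poisson intervals, and differences as log2 ratios of CPM, K14-Cre over fl/fl, with 95% binomial intervals; both cover counting error only. Levels were not compared between genes, because the number of probes per gene is not given in the sources used here. The sections differed in what they contained: against fl/fl, the log2 ratio in K14-Cre was -1.68 for the keratinocyte marker list, 0.41 for fibroblast, -0.01 for macrophage, 1.72 for adipocyte, 1.76 for muscle and 4.53 for developmental muscle markers, and all genes of these 6 lists had UMIs. Olfactory, vomeronasal, taste and trace amine receptor genes, 1226 genes that skin hardly uses and that here stand for stray signal, were also higher in K14-Cre (log2 ratio 1.43), at a mean of 11.8 UMIs per gene in fl/fl and 17.0 in K14-Cre. S1pr2 itself had 154 UMIs in fl/fl and 54 in K14-Cre (log2 ratio -0.61, interval -1.09 to -0.15), which counts all cells and not keratinocytes alone. The 2 sections shared 357 spot barcodes, which name array positions and not cells.

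In the mm10 assembly (RefSeq GRCm38.p6), the C1q genes lie side by side at chr4:136880126-136886200 (C1qb), chr4:136889801-136892936 (C1qc) and chr4:136895916-136898844 (C1qa). C4b (chr17:34728139-34743902) and Cfb (chr17:34856374-34862514) lie in the major histocompatibility region, C3 at chr17:57203967-57228136, C7 at chr15:4987750-5063773 and Serping1 at chr2:84765360-84775444. C4b is nearly identical to C4a, which RefSeq lists as a transcribed pseudogene and which has no row in these files, so C4b UMIs may include C4a. C3, C4b, C7 and Serping1 are called stromal here, which is a group name and not a source shown by these data. C1qb and C1qc kept their proportion over the whole sections, and the stromal genes C3 and C7 did not move alike. RefSeq promoter sequences were at hand for these 4 of the 8 members. They are shown from upstream to the annotated start of the gene, 5′ to 3′ (for C1qc, 22 bases that lie inside the annotated gene were left out), so that the sequence around the start can be set beside the layers described next. Capitals mark matches, on either strand, to GAGGAA, the core bound by the ETS family factor PU.1 of macrophages, to TTGCNNAA, a loose form of the C/EBP motif, and to the TATA box TATAAA, which did not overlap each other.
C1qb, chr4:136886201-136886450, minus strand: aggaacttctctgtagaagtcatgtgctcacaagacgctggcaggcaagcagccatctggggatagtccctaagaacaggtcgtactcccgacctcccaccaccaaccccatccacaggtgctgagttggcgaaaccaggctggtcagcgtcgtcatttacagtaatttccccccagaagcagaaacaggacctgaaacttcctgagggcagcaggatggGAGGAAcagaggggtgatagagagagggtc
C1qc, chr4:136892937-136893164, minus strand: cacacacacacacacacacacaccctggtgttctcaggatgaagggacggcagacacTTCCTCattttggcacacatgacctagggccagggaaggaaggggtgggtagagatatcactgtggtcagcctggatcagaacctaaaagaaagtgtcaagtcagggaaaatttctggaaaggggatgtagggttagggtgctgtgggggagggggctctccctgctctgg
C3, chr17:57228137-57228386, minus strand: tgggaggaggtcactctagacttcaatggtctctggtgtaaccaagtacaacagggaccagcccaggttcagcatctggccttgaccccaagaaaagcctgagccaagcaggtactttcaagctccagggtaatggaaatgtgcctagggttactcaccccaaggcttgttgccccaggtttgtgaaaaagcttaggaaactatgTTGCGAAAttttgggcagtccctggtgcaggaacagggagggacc
C7, chr15:5063774-5064023, minus strand: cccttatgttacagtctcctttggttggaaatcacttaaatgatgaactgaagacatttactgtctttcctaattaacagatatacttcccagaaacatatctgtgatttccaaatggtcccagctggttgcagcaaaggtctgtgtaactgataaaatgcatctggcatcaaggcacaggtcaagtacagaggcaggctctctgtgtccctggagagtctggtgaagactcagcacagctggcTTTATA
GAGGAA was found once in each of the C1qb and C1qc windows and in neither of the others, against 23.3% of 32851 promoter windows of 250 bases. TTGCNNAA was found in the C3 window (9.56% of all windows) and TATAAA, on the opposite strand and next to the start, in the C7 window (12.4% of all windows). Such matches describe the letters only.

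All 8 genes were lowest next to the surface. Spots were ordered from the keratin-rich surface inward along the array and divided into 4 depth zones of about equal spot number, zone 1 at the surface, without use of the members. The keratinocyte list fell from 125311 CPM in zone 1 to 33529 CPM in zone 4 of fl/fl and from 62390 to 2973 CPM in K14-Cre, and the muscle list was highest in zone 4 of both sections, so the zones ran from epidermis to muscle. Both sections bend at one end, and a separate piece of tissue lies below the K14-Cre section, so that array depth only approximates skin depth there. In fl/fl all 8 genes were highest in zone 3, where the fibroblast and macrophage lists were highest too. So were other lists, among them those of adipocytes (3308 CPM), endothelial cells (257 CPM), mast cells (191 CPM) and Schwann cells (505 CPM). The zone therefore does not single out a cell type. In K14-Cre 6 of the 8 genes were highest in zone 3, while C4b was highest in zone 2 and C3 in zone 4. The share of all genes highest in zone 3 was not counted. For C4b, C7 and Serping1 of K14-Cre, the highest and the next highest zone did not differ beyond counting error.

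**Figure D1:**
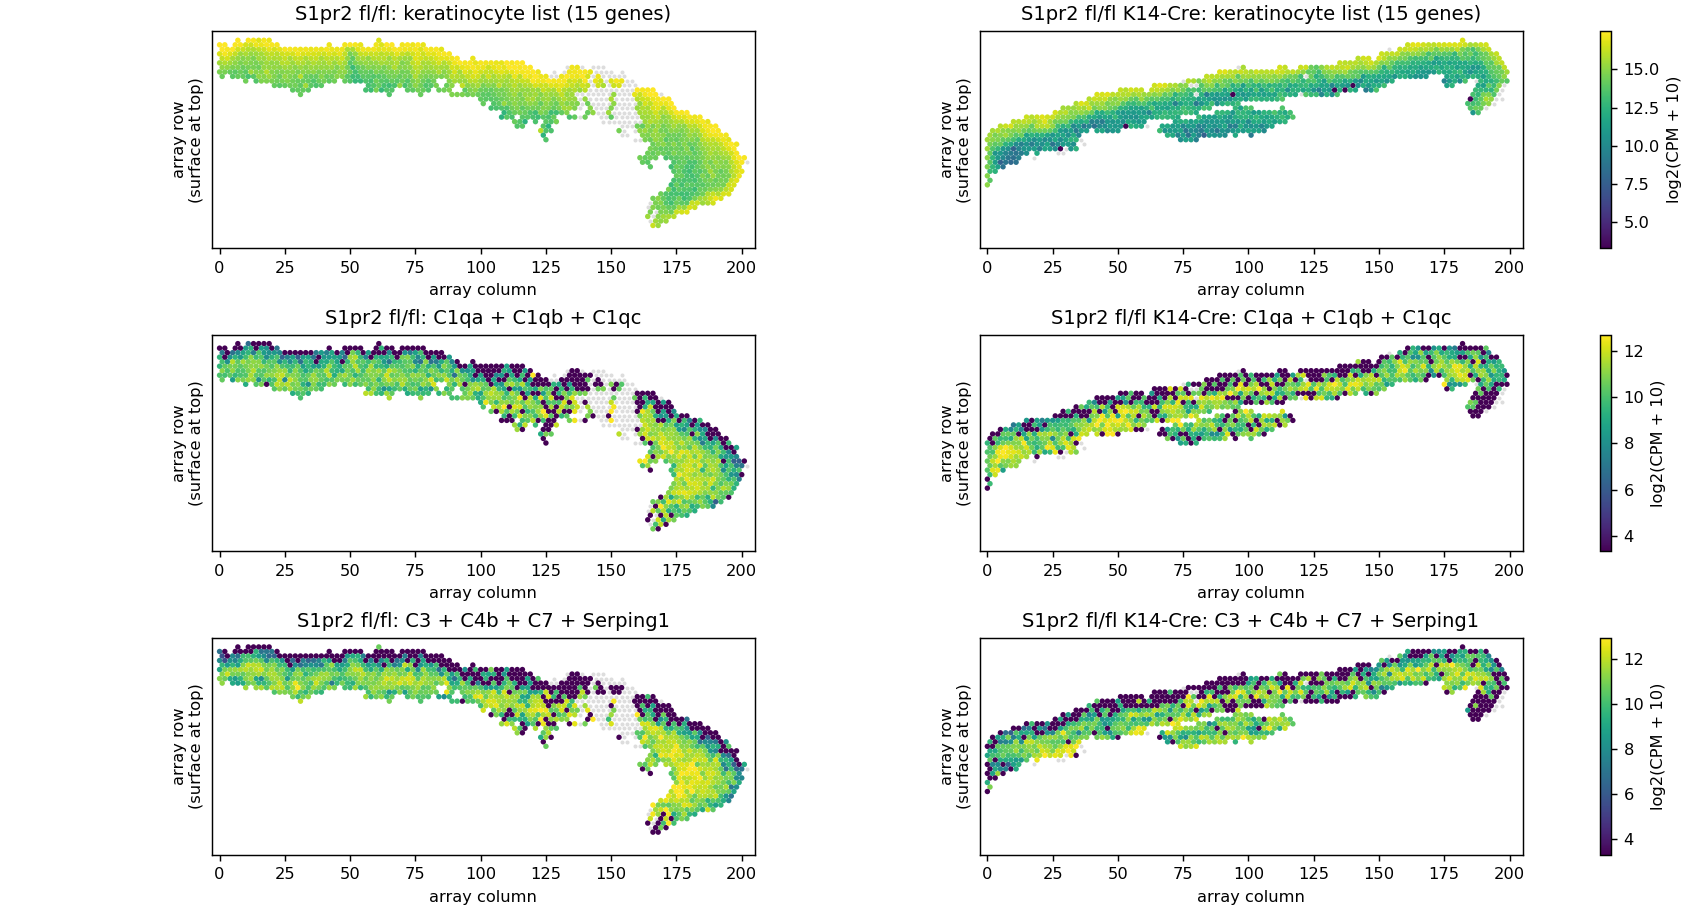
Each point is a spot, placed by its array row and column with the surface at the top, in fl/fl (left) and K14-Cre (right); colour gives log2(CPM + 10) of the keratinocyte list, the sum of C1qa, C1qb and C1qc, and the sum of C3, C4b, C7 and Serping1, and spots under 500 UMIs are grey. The keratin-rich rim is dark for both complement sums, whose bright spots lie beneath it in both sections.

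Of the C1q chains, C1qa was at 146, 488, 785 and 582 CPM in zones 1 to 4 of fl/fl. In K14-Cre its levels were 204, 792, 1232 and 876 CPM. C1qa was thus higher in K14-Cre in each zone, with all 4 intervals of the log2 ratio above 0. C1qb was at 86.9, 355, 521 and 405 CPM in fl/fl and at 154, 361, 580 and 457 CPM in K14-Cre. C1qc was at 97.1, 379, 664 and 532 CPM in fl/fl and at 122, 448, 731 and 515 CPM in K14-Cre. For C1qb the interval of the log2 ratio included 0 in zones 2 to 4 and lay above it in zone 1 (0.82, 0.42 to 1.22), and for C1qc it lay above 0 in zone 2 alone (0.24, 0.03 to 0.45).

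C3 encodes the protein on which all complement pathways converge. It was at 46.7, 467, 1108 and 703 CPM in fl/fl and at 68.6, 519, 947 and 1052 CPM in K14-Cre, with a log2 ratio of zone 4 over zone 1 of 3.91 and 3.94. In zone 4 over zone 3, C3 was lower in fl/fl (log2 ratio -0.66, -0.78 to -0.53) and slightly higher in K14-Cre (0.15, 0.0069 to 0.30). Cfb, the factor B gene, was at 24.1, 69.2, 145 and 106 CPM in fl/fl and at 13.1, 63.1, 117 and 65.1 CPM in K14-Cre.

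The remaining stromal genes had a peak in zone 3 of fl/fl that was lower in K14-Cre. C4b, which encodes the C4 protein of the classical and lectin pathways, was at 116, 618, 1111 and 716 CPM in fl/fl and at 160, 574, 550 and 400 CPM in K14-Cre. C7 was at 8.76, 87.7, 185 and 112 CPM in fl/fl and at 26.1, 28.6, 57.7 and 54.4 CPM in K14-Cre, where zone 1 rests on 16 UMIs. Serping1 was at 69.4, 301, 517 and 312 CPM in fl/fl and at 98.0, 283, 296 and 292 CPM in K14-Cre. All 8 genes were at least 2-fold higher in zone 4 than in zone 1, in both sections, against 22.6% of 8486 genes in fl/fl and 23% of 5774 genes in K14-Cre. At least 4-fold were 7 of 8 in fl/fl (C1qa was 3.99-fold), against 8.24% of genes, and C1qa, C1qc, C3 and Cfb in K14-Cre, 4 of 8 against 8.64% of genes. The value of Cfb in K14-Cre rests on 8 UMIs in zone 1 (log2 ratio 2.32, 1.23 to 3.61). With the receptor-gene background taken off it was 3.72. With the 2 uppermost spots set against deeper ones, 7 of 8 genes of K14-Cre were still at least 2-fold (C4b had a log2 ratio of 0.62). C3 alone was at least 4-fold there (2.21). In fl/fl the counts were 8 and 7, with C1qb (1.82) below 4-fold in place of C1qa. The share of all genes was not counted for this contrast, and the shares given above belong to zone 4 over zone 1.

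**Figure D2:**
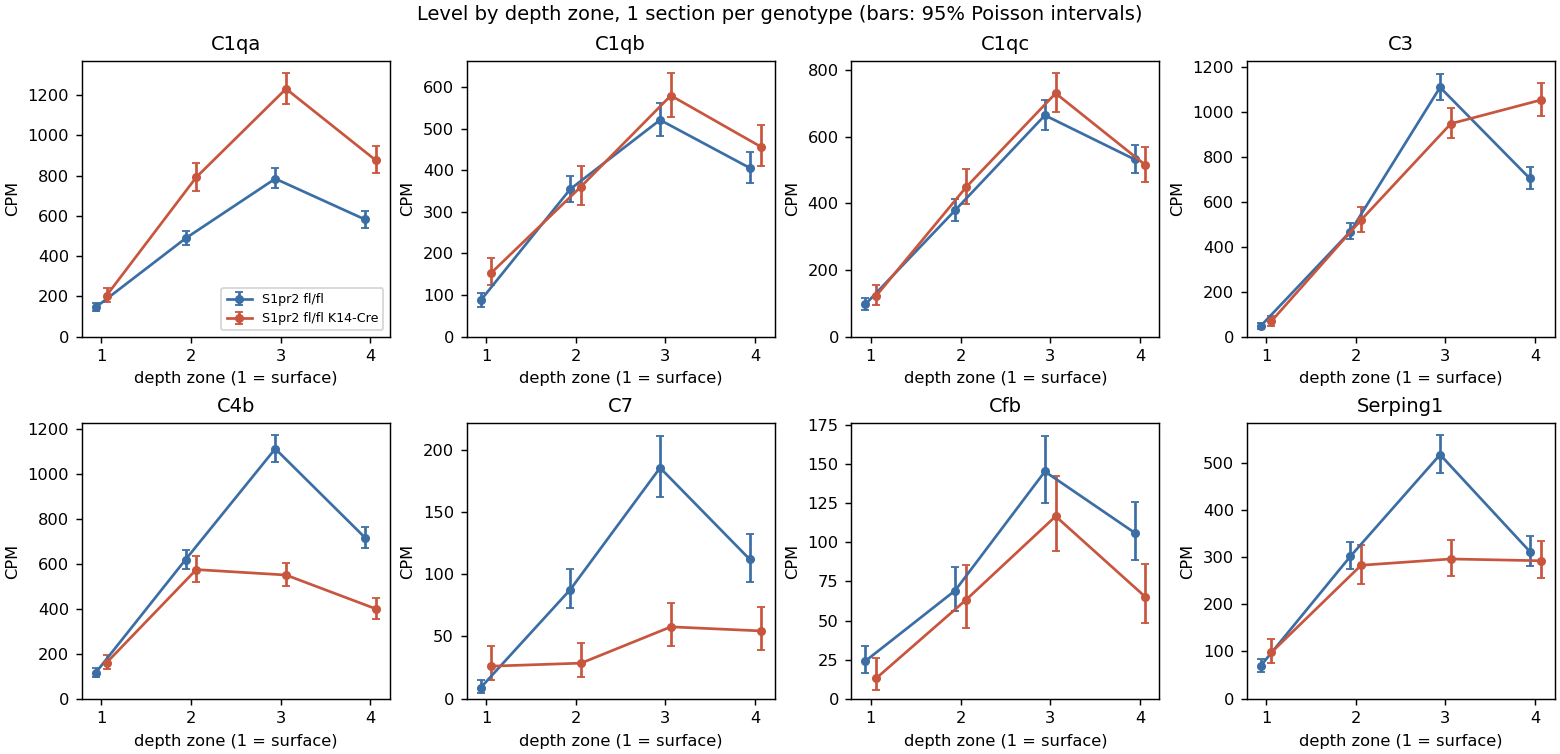
Level in CPM (vertical axis, from 0) of each of the 8 genes in the 4 depth zones (horizontal axis, 1 at the surface), in fl/fl (blue) and K14-Cre (red); bars are 95% Poisson intervals. C1qa is higher in K14-Cre in all 4 zones, and C4b, C7 and Serping1 are lower in K14-Cre in zone 3.

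Regions found by clustering of the spots without the complement genes gave a finer account. In fl/fl, 7 of the 8 genes were highest in a cluster of 223 spots led by Mup17, Glis3, Prg4, Mcpt4 and Trim2. The share of all genes highest in this cluster was not counted. In it, 8 of 9 fibroblast, 4 of 5 fascia fibroblast, 10 of 11 macrophage, 6 of 7 adipocyte, 5 of 5 mast cell and 3 of 4 Schwann cell markers were 2-fold or more above the rest of the spots. There C1qa was at 996 CPM, C1qb at 611, C1qc at 770, C4b at 1287, C7 at 211, Cfb at 150 and Serping1 at 654 CPM. C3 was at 1194 CPM in it and at 1223 CPM (interval 1068 to 1394) in a cluster of few UMIs per spot (median 987) led by Tceal7, Srl, Popdc2, Trim63 and Prr33, genes of muscle among them, which did not differ beyond counting error. For C1qa, C1qb, C1qc, C4b and C7 too, the intervals of the Mup17-led and the Tceal7-led cluster overlapped. The interval of Cfb in the Mup17-led cluster overlapped with those of other clusters, and that of Serping1 with none. The lowest levels of fl/fl were in the clusters led by Nlrp10, Flg, Lce6a, Gm11992 and Gm94 and by Sprr2i, Pla2g4d, Arg1, Lce3a and Tmprss11g, which contain genes of the cornified layer. In the Sprr2i-led cluster C1qa and C1qb were each at 55.8 CPM, C1qc at 37.2, C3 at 21.3, C4b at 42.5, Serping1 at 31.9, Cfb at 7.98 and C7 at 2.66 CPM. The cluster led by Awat1, Cyp1a1, Rarres1, Scd3 and Sec14l4, with genes of sebaceous lipid synthesis, lay between, with C1qa at 307, C4b at 397 and C3 at 171 CPM.

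In K14-Cre, 6 of the 8 genes, all but C7 and Serping1, were highest in a cluster of 204 spots led by Tnnc1, Myh8, Tnni1, Tnnt2 and Myl4, genes of slow, embryonic and newborn muscle. The share of all genes highest in this cluster was not counted either. Here 6 of 6 developmental muscle and 6 of 9 fibroblast markers, and 3 of 11 macrophage markers, were 2-fold or more above the rest. So were 5 of 7 adipocyte, 4 of 4 smooth muscle, 3 of 4 Schwann cell and 3 of 6 endothelial markers, but 0 of 7 markers of the muscle list. C1qa was at 1461 CPM, C1qb at 637, C1qc at 769, C3 at 1055, C4b at 573 and Cfb at 127 CPM. For C1qb, C3 (1049 CPM in the Mstn-led cluster), C4b and Cfb, intervals of other clusters overlapped with these. The Tnnc1-led cluster held 1231 of the 2315 C1qa UMIs of the section (53.2%), beside 842834 of its 2845826 UMIs of all genes. In fl/fl no cluster was led by Tnnc1, Myh8, Tnni1, Tnnt2 and Myl4. C7 was highest, at 76.4 CPM, in the cluster led by Mstn, Dusp13, Rnf115, Myh2 and Myo18b, and Serping1, at 472 CPM, in the one led by Cmklr1, Taco1, Ddx41, Atp6v1c1 and B3galt6, in which no fibroblast or macrophage marker was 2-fold above the rest. The interval of C7 in the Mstn-led cluster (52.9 to 106.7) overlapped with those of other clusters. The lowest levels were again in the cluster led by Sprr2i, Lce3a, Lce3b, Gjb6 and Grhl3, with C1qa at 119, C1qb at 99.9, C1qc at 58.0, C3 at 51.6, C4b at 70.9, Serping1 at 51.6 and C7 and Cfb each at 3.22 CPM.

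The members were then set against marker genes, none of which is a member. In fl/fl, the C1q sum (the 3 chains together) was at 2362 CPM in the 274 spots richest in macrophage markers and at 663 CPM in the 548 poorest, 3.56-fold apart, and by fibroblast markers it was 3.77-fold apart. In K14-Cre, with 236 and 473 spots, these folds were 2.87 and 3.44. The folds by the 2 lists were close, and they did not separate a macrophage from a fibroblast source. For keratinocyte markers the order was opposite for all 8 genes in both sections. C3 followed the adipocyte list in both sections (7.05-fold in fl/fl and 5.88-fold in K14-Cre). It followed the list of fascia fibroblasts more closely in fl/fl (8.91-fold) and less so in K14-Cre (3.66-fold), and the fibroblast list at 4.95-fold in fl/fl and 1.64-fold in K14-Cre. By the macrophage list C3 was 6.78-fold apart in fl/fl and 2.28-fold in K14-Cre, and by the muscle list 2.58-fold and 3.64-fold. C4b followed the fibroblast list at 5.56-fold and 2.63-fold and the macrophage list at 4.65-fold and 2.15-fold, in fl/fl and K14-Cre. For Serping1 these folds were 5.15, 2.48, 4.14 and 1.94. C7 followed the fascia fibroblast (8.37-fold) and fibroblast (6.14-fold) lists in fl/fl, while in K14-Cre, on few UMIs, both intervals included no difference (1.36-fold and 1.19-fold). Also on few UMIs, C7 of K14-Cre was 2.74-fold apart by the macrophage, 2.33-fold by the muscle and 2.05-fold by the adipocyte list. The intervals of these 3 excluded no difference, and that by the endothelial list (0.72-fold) included it. Cfb followed the fascia fibroblast list at 4.27-fold, the macrophage list at 3.68-fold and the fibroblast list at 3.62-fold in fl/fl, and at 3.99-fold, 5.25-fold and 3.58-fold in K14-Cre. Spots of a section share 1 library and are not replicates.

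Genes whose profile over 24 tiles (depth zone by segment along the section) was most like each member were ranked among 7584 genes by the lower of the Pearson correlations of the 2 sections. For C1qa they were Selenop (r = 0.90), Igfbp4 (0.88) and C1qb (0.86), and for C1qb Selenop (0.90), Clec3b (0.88) and Gpx3 (0.87). C1qc was closest to Tnxb (0.90), Nedd4 (0.89) and Gas6 (0.88), C4b to Tnxb (0.91), Gpx3 (0.88) and Lum (0.87), and Serping1 to Tgfbr2 (0.89), Dpt (0.86) and Lum (0.82). C3 had the closest neighbours, with Dpt, a matrix protein of the dermis and fascia, at 0.96, Gpx3 at 0.94 and Fth1 at 0.92. Cfb (Hexa 0.77, Ccl6 0.77, Serpinh1 0.77) and C7 (Esr1 0.73, Sdc2 0.71, C1qc 0.70), the genes with fewest UMIs, had the least close ones. Ranked by Spearman's correlation instead, C1qb was closest to C1qa (0.87) and C1qc (0.85), and C1qc was closest to C1qb (0.85). These values describe tiles that share a library and a depth trend.

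Over whole sections, the C1q chains and C3 were higher and C4b, C7, Cfb and Serping1 lower in K14-Cre. C1qa had 2625 UMIs in fl/fl and 2315 in K14-Cre, or 494 CPM (475 to 513) and 813 CPM (781 to 847), a log2 ratio of 0.72 (0.64 to 0.80). C1qb was at 338 and 404 CPM (log2 ratio 0.26, 0.15 to 0.36) and C1qc at 411 and 476 CPM (0.21, 0.12 to 0.31). C3 was at 566 and 686 CPM (0.28, 0.19 to 0.36). These 4 intervals lay above 0, as did those of 30.5% of 10439 genes with at least 100 UMIs.

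C7 differed most, with 513 UMIs in fl/fl and 123 in K14-Cre, or 96.5 and 43.2 CPM (log2 ratio -1.16, -1.45 to -0.87). C4b had 3338 and 1229 UMIs, or 628 and 432 CPM (-0.54, -0.64 to -0.45). Cfb was at 84.1 and 68.2 CPM (-0.30, -0.55 to -0.06) and Serping1 at 295 and 249 CPM (-0.24, -0.37 to -0.12). These 4 intervals lay below 0, as did those of 29.6% of genes. C7 alone passed 2-fold, in the lower direction, which 6.92% of genes did, and none of the 8 was 2-fold higher, which 6.73% of genes were. The median log2 ratio of the 8 members was -0.02 and that of all genes tested 0.01. Directions of 3 members depended on the setting. With TMM scaling, which lowers every log2 ratio by 0.37, C1qb (-0.11), C1qc (-0.16) and C3 (-0.096) were lower in K14-Cre, and the Tnnc1-led cluster, left out in a step added once the data had been seen, took them to -0.14, -0.22 and -0.095. C1qa was higher under all 9 other settings tried (0.13 to 0.73), with 0.35 under TMM and the lowest value without the Tnnc1-led cluster, and C4b (-0.95 to -0.54), C7 (-1.57 to -1.15), Cfb (-0.95 to -0.30) and Serping1 (-0.65 to -0.21) were lower under all 9.

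**Figure D3:**
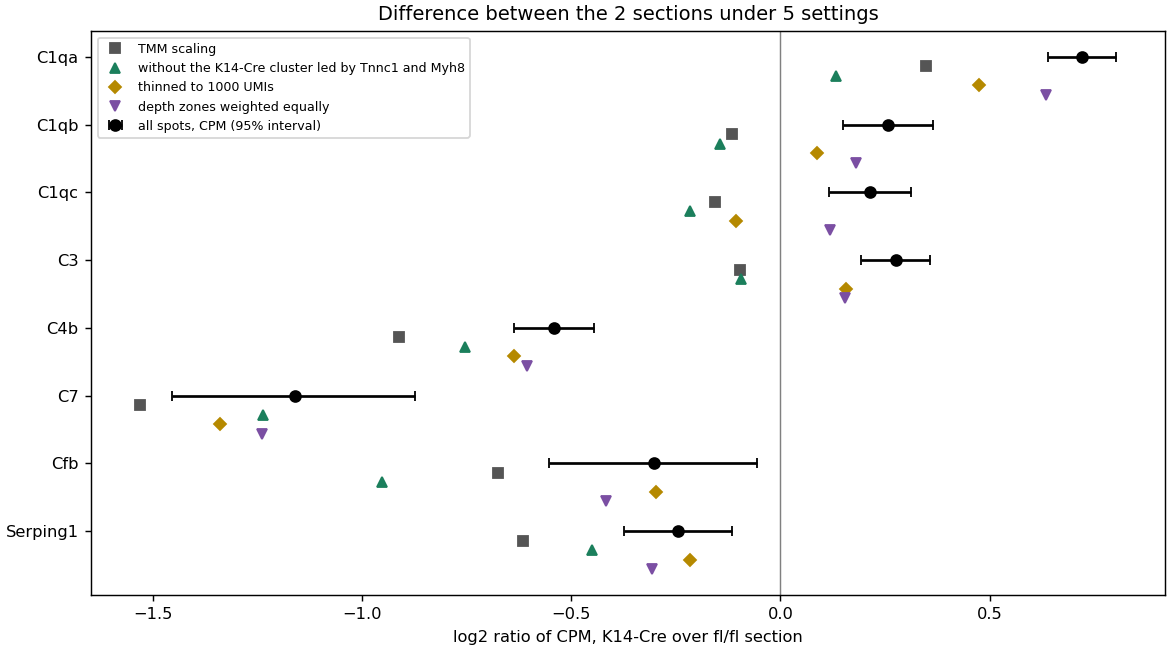
Log2 ratio of CPM, K14-Cre over fl/fl section, for the 8 genes (rows); black points are all spots with 95% binomial intervals and coloured symbols 4 other settings, named in the key. C4b, C7, Cfb and Serping1 stay left of 0 and C1qa stays right of it in all 5, while C1qb, C1qc and C3 have symbols on both sides.

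By depth, the differences were not alike in all layers. C4b was lower in K14-Cre in zone 3 (log2 ratio -1.01, -1.17 to -0.86) and zone 4 (-0.84, -1.04 to -0.65) and higher in zone 1 (0.46, 0.085 to 0.84). C7 was lower in zones 2 (-1.62), 3 (-1.68) and 4 (-1.04) and higher in zone 1 (1.58, 0.40 to 2.79, on 12 and 16 UMIs). Serping1 was lower in zone 3 (-0.80, -1.02 to -0.59), its intervals included 0 in zones 2 and 4, and it was higher in zone 1 (0.50, 0.0072 to 0.98). C3 was lower in zone 3 (-0.23, -0.36 to -0.099) and higher in zone 4 (0.58, 0.44 to 0.72). Cfb was lower in zone 4 alone (-0.71, -1.21 to -0.22). The keratinocyte list was lower and the muscle and adipocyte lists were higher in K14-Cre in each zone. In zone 1 the fibroblast list was at 5139 CPM in fl/fl and 7383 CPM in K14-Cre, and the macrophage list at 472 and 653 CPM. The part of these lists in the differences was not tested. With the receptor-gene background taken off, the log2 ratio of zone 4 over zone 1 of C7 in K14-Cre was 1.51, against 1.06. For single genes, the differences within zones were not computed with it taken off.

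In the clusters led by genes of adult muscle (373 spots in fl/fl and 288 in K14-Cre, the Tnnc1-led cluster not among them), the C1q sum was at 1700 and 1749 CPM (log2 ratio 0.041, -0.059 to 0.14) and C3 at 965 and 962 CPM (-0.0043, -0.14 to 0.13). Of the C1q chains, C1qa was higher in K14-Cre, at 635 and 725 CPM (0.19, 0.034 to 0.35). The intervals of C1qb (-0.094) and C1qc (-0.030) included 0. C4b (-0.74, -0.92 to -0.56), C7 (-1.18, -1.66 to -0.72), Cfb (-0.67, -1.15 to -0.22) and Serping1 (-0.42, -0.67 to -0.18) were lower in K14-Cre there. These spots are part of the whole sections, and the share of all genes lower in them was not counted. The muscle clusters of the 2 sections were not alike, however. Against the other spots of the section, 6 and 4 of 7 adipocyte markers were at least 2-fold higher in those of fl/fl. In those of K14-Cre 1 and 0 were. For smooth muscle markers the counts were 4 and 0 in fl/fl and 0 and 0 in K14-Cre. In the Sprr2i-led clusters, a comparison chosen after seeing the values, the C1q sum was at 149 CPM (112 to 193, 132 spots) in fl/fl and 277 CPM (222 to 342, 103 spots) in K14-Cre, on 56 and 86 UMIs (log2 ratio 0.90, 0.39 to 1.41). C3 there rested on 8 and 16 UMIs and C7 on 1 and 1. All keratin-rich clusters together gave 152 CPM in 188 spots of fl/fl and 709 CPM in 348 spots of K14-Cre for the C1q sum (2.22, 1.96 to 2.49), but the K14-Cre clusters include one led by Klk14, Rarres1, Sostdc1, Defb6 and Sec14l4 and one led by Slc25a48, Awat1, Crabp1, Gata3 and Oip5, and the fl/fl cluster with Awat1 and Rarres1 is not among those of fl/fl, so that these sets are not the same region.

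Relative to fibroblast markers, C3, C4b, C7, Cfb and Serping1 were lower in K14-Cre. Division by this list, itself at a log2 ratio of 0.41, lowers the ratio of every gene by that amount. C3 was higher in CPM (0.28) and is lower only by this measure. Of 10439 genes with at least 100 UMIs, 66.3% had a CPM ratio below that of C3 and are thus lower by it too. Per UMI of the fibroblast list, the log2 ratio was -0.95 (-1.04 to -0.85) for C4b, -1.57 (-1.85 to -1.28) for C7, -0.65 (-0.78 to -0.52) for Serping1, -0.71 (-0.95 to -0.47) for Cfb and -0.13 (-0.22 to -0.05) for C3. Per UMI of the macrophage list, that of the C1q sum was 0.45 (0.38 to 0.53) and that of C3 was 0.28 (0.18 to 0.38). The genes of each list did not move alike between the sections. Of 11 macrophage genes, 6 had intervals of the log2 ratio above 0 and 4 below, and of 9 fibroblast genes 5 and 2. These ratios are therefore not levels per macrophage or per fibroblast.

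Among the C1q chains, C1qa moved apart from C1qb and C1qc, whose products assemble with it in fixed proportion. There were 0.659 C1qa UMIs (0.627 to 0.693) per UMI of C1qb and C1qc in fl/fl and 0.924 (0.873 to 0.978) in K14-Cre, a log2 ratio of 0.49 (0.38 to 0.59). C1qb per C1qc was 0.824 in fl/fl and 0.848 in K14-Cre (0.042, -0.10 to 0.19), although in segment 4 along the section it was 0.745 and 1.10 (0.56, 0.25 to 0.86). By depth, the log2 ratio of C1qa per C1qb and C1qc was -0.10 (-0.53 to 0.33) in zone 1 and 0.56, 0.51 and 0.54 in zones 2 to 4. Along the section it was 0.87 (0.70 to 1.04), 0.39, -0.026 (-0.41 to 0.36) and 0.29 (0.07 to 0.52) in 4 segments, so that it was not alike everywhere. The first K14-Cre segment held 1244 C1qa UMIs, and without the Tnnc1-led cluster the ratio over the whole section was 0.32 (0.18 to 0.45). Without the 10 spots of most C1qa UMIs in each section it was 0.46 (0.34 to 0.57).

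**Figure D4:**
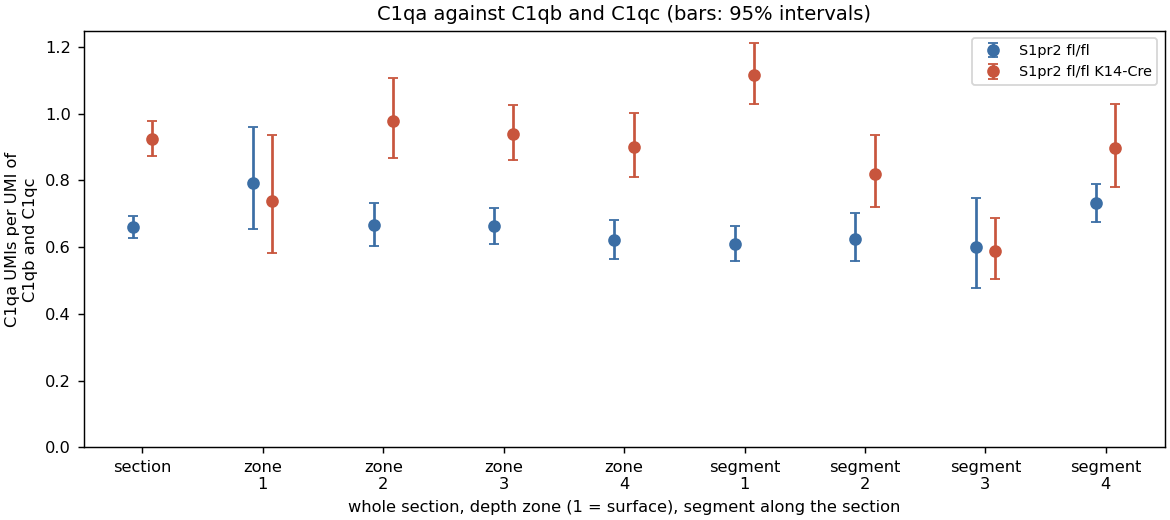
C1qa UMIs per UMI of C1qb and C1qc (vertical axis, from 0) for the whole section, the 4 depth zones and 4 segments along the section, in fl/fl (blue) and K14-Cre (red); bars are 95% intervals. K14-Cre is higher in zones 2 to 4, and the intervals overlap in zone 1 and in segments 3 and 4.

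Levels varied along each section. Over 4 segments of equal spot number, C1qa ranged from 393 to 643 CPM in fl/fl and from 587 to 1067 CPM in K14-Cre, and C4b from 462 to 835 CPM and from 354 to 521 CPM. C7 ranged from 57.5 to 109 CPM in fl/fl and from 34.4 to 60.8 CPM in K14-Cre, an overlap that rests on segment 3 of fl/fl. C3 ranged from 397 to 716 CPM and from 502 to 1015 CPM, and Cfb from 62.7 to 96.3 CPM and from 31.3 to 114 CPM. The segment ranges of the 2 sections overlapped for all 8 genes (0 of 8 apart), while all K14-Cre segments were above those of fl/fl for 7.63% and below for 13.3% of 10439 genes. Segments are pieces of 1 section and not replicates.

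Of the wider complement pathway, 56 genes were followed, 54 were in the files and 27 had at least 100 UMIs. Of the 19 that are not members, 12 had intervals above 0 (30.5% of all genes did) and 1 below (29.6% of all genes), and 2 were at least 2-fold higher (6.73% of all genes) and 0 lower (6.92%). With TMM scaling, 8 of the 19 intervals lay above 0 and 7 below, so that the directions that follow hold for CPM. The shares of all genes given here are for CPM and were not counted under TMM. Intervals above 0 under both scalings were those of Cfd, Cd59a, Clu, C5ar2, C5ar1, Itgb2, Itgam and C3ar1. For the 19 genes, the ratio without the Tnnc1-led cluster of K14-Cre was not computed. Among the initiators, Masp1, a protease of the lectin pathway, was lower (log2 ratio -0.53, -0.80 to -0.26) and Fcna, a ficolin of macrophages, higher (0.39, 0.09 to 0.70), while the intervals of the C1r gene C1ra (-0.17) and of Colec12 (-0.17) included 0. Of the central components, Cfd, the adipocyte-made factor D, was at 921 CPM in fl/fl and 1736 CPM in K14-Cre (0.91, 0.86 to 0.97), beside an adipocyte list at 1835 and 6023 CPM. C2, the partner of C4b, was higher (0.84, 0.36 to 1.33), as was Cfp, properdin (0.21, 0.07 to 0.35). Of the regulators, Cd59a, an inhibitor of the membrane attack complex, was higher (1.47, 1.12 to 1.82), as was Clu (0.58, 0.39 to 0.78), and the intervals of Cd55 (-0.37) and Cr1l (0.028) included 0. Of the receptors, C5ar2 (1.32), C5ar1 (0.93), Itgb2 (0.85), Itgam (0.69), C3ar1 (0.66) and Cd93 (0.59) were all higher, with intervals above 0, and C1qbp (0.12) was not. C5ar2 rested on the fewest UMIs of these, 45 in fl/fl and 60 in K14-Cre, just above the limit of 100 over both sections. It is 1 of the 2 genes at least 2-fold higher. C2 rested on 76 and 73 UMIs, and the part of stray signal in either ratio was not tested. The interval of the terminal gene C6 included 0 (0.037, -0.42 to 0.48). In K14-Cre, 13 of the 16 listed genes with 30 to 99 UMIs were at least 2-fold higher, as were 57.8% of the 6399 genes of that range, beside the mean of 11.8 UMIs in fl/fl and 17.0 in K14-Cre of the receptor genes that stand for stray signal.

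**Figure D5:**
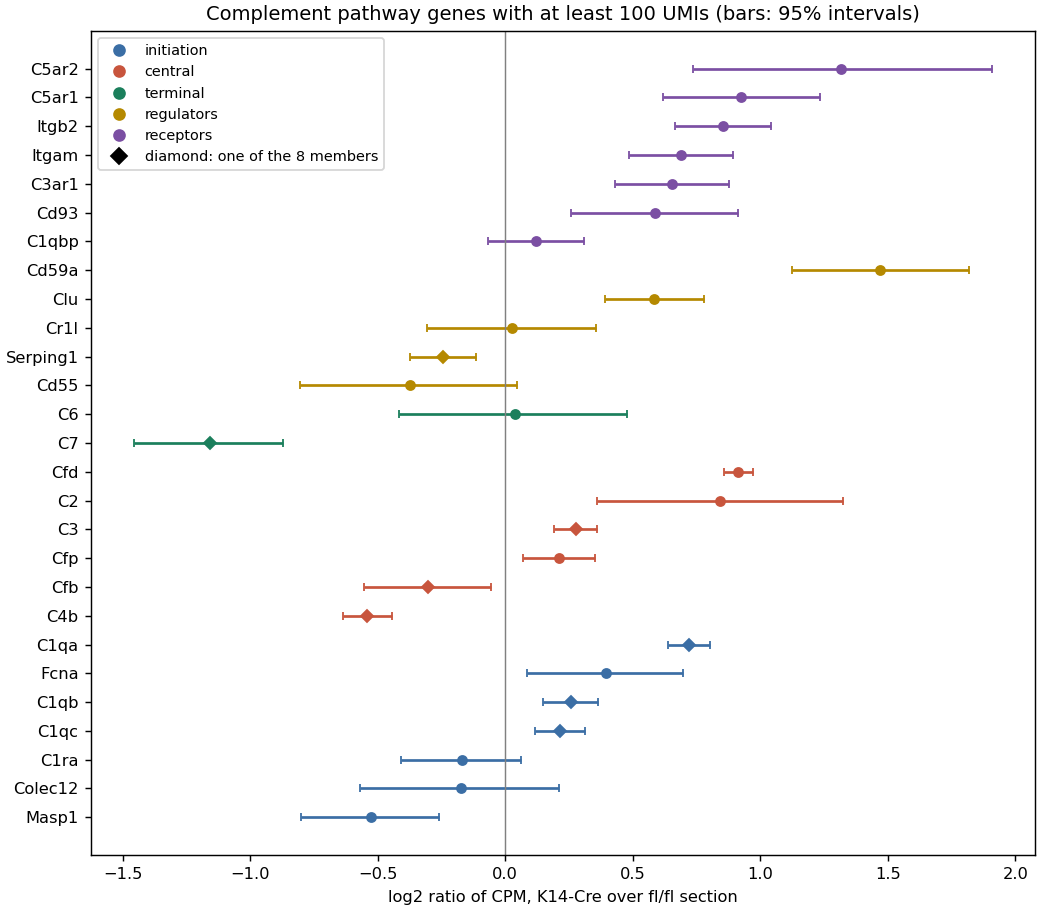
Log2 ratio of CPM, K14-Cre over fl/fl section, of the 27 complement pathway genes with at least 100 UMIs, grouped and coloured by role, with 95% binomial intervals; diamonds are the 8 members. The receptors lie right of 0, where C1qbp would not stay under TMM scaling, which shifts all points left by 0.37, and C7 lies farthest to the left.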

How the data were processed

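FFPE skin sections of 10 µm, 1 per genotype, were profiled with 10x Visium CytAssist, in which probe pairs stand for genes. The deposited values are UMI counts of genes in spots over tissue, not normalized by the authors; the file headers name Space Ranger 3.0.0 and the submitters' processing notes mm10. The probe set is not given in the sources used here. Members, marker lists and pathway list were chosen with earlier results of these data known. Named genes were the members, pathway genes with at least 100 UMIs, the 3 genes most like each member, up to 5 leading genes of each cluster (the highest folds over other spots) and marker genes; 1 further pathway gene was left out of all pathway counts and is not reported here.

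UMIs were summed and divided by all UMIs of the same spots, in Python 3.11.15 (numpy 2.4.6, scipy 1.17.1, pandas 2.3.3). The precision follows from the UMIs summed: intervals are 95% exact Poisson for CPM, conditional binomial for ratios of CPM, and normal on the log scale for ratios to other genes' UMIs. With 1 library per genotype no p-value was computed. Depth was the order of spots within strips of 4 array columns, for connected groups of at least 20 spots (1203 in fl/fl and 970 in K14-Cre), and the surface the side with more keratinocyte UMIs. Clustering, within a section and of spots with 50 UMIs or more, used scanpy 1.11.5 and leidenalg 0.10.2 (2000 variable genes without the complement genes, 20 principal components, 15 neighbours, resolution 1). A spot is not a cell, and no deconvolution or doublet caller was run. Marker folds took spots with at least 500 UMIs, and likeness log2(CPM + 10) of genes with at least 200 UMIs. Ratios and intervals were tested on simulated data, with Poisson counts drawn from the section sums and known folds. These held counting error only, so the check says nothing of tissue composition, stray signal or variation between spots or mice. Alternatives were spots with at least 500 UMIs, connected groups, thinning to 1000 UMIs, TMM factors of edgeR 4.0.16 in R 4.3.3, the mean of CPM over spots, receptor-gene background taken off, members per marker UMI, equally weighted depth zones, other clusterings, 8 segments and Spearman's correlation; leaving out the Tnnc1-led cluster or the 10 spots richest in C1qa and the TMM count of pathway intervals were added once the data had been seen.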

Additional observations from a re-analysis of the deposited data

Results flagged for a closer look

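For C3, the step from depth zone 3 to zone 4 ran opposite ways in the 2 sections, with a log2 ratio of -0.66 in S1pr2 fl/fl and 0.15 in S1pr2 fl/fl K14-Cre. It stands here because the same contrast differed in sign between the genotypes. The difference was not tested, since each genotype had 1 section. In zone 4 the adipocyte list was at 3055 CPM in fl/fl and 9010 CPM in K14-Cre, and the muscle list at 49377 and 108404 CPM. The keratinocyte list of zone 4 was at 33529 CPM in fl/fl and 2973 CPM in K14-Cre. In zone 3 it was at 32768 CPM in fl/fl and 4764 CPM in K14-Cre, so that in fl/fl it did not fall from zone 3 to zone 4. The part of these lists in this result was not tested.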

How the results depend on the processing

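No paired analysis was possible because the labels give no replicate numbers and each genotype had 1 section. The C1q sum (log2 ratio 0.45 over whole sections) was 0.20 with thinning, 0.0754 with TMM, 0.17 as the mean over spots, 0.36 with equally weighted depth zones and -0.0497, reversed, without the Tnnc1-led cluster; the same settings gave the sum of C3, C4b, C7 and Serping1 (-0.17) as -0.26, -0.54, -0.29, -0.26 and -0.45, and -0.58 per UMI of the fibroblast list. Of single genes, C1qb reversed with TMM (-0.11) and without that cluster (-0.14), C1qc with thinning (-0.11), TMM (-0.16) and without the cluster (-0.22), and C3 with TMM (-0.0957), per fibroblast UMI (-0.13) and without the cluster (-0.095). The cluster holds much of the K14-Cre C1q, and its removal was decided after seeing the data; other causes were not tested.

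With the 2 uppermost spots against deeper ones in place of zones, the log2 step with depth was 2.04 (C1q, fl/fl), 1.28 (C1q, K14-Cre), 2.73 (stromal, fl/fl) and 1.41 (stromal, K14-Cre), against 2.20, 1.94, 2.94 and 2.35. Keratin-rich clusters over other spots were -3.53 (C1q) and -4.91 (stromal) at resolution 0.5 in fl/fl, and for the stromal sum of K14-Cre -1.77 at resolution 0.5 and -2.06 with joint clustering, against -3.28, -4.42 and -1.90. After thinning, the macrophage split of C1q was 1.20 (fl/fl) and 1.27 (K14-Cre), and the fibroblast split of the stromal sum 2.05 and 1.42, against 1.83, 1.52, 2.40 and 1.02. With the Sprr2i-led clusters only, the keratin-rich difference was 0.90 for C1q and 0.85 for the stromal sum, against 2.22 and 2.53. C1qa per C1qb and C1qc was 0.32 without the Tnnc1-led cluster. Pathway genes at least 2-fold higher numbered 15 at a minimum of 30 UMIs and 1 with TMM, against 2. Pathway intervals above and below 0 numbered 8 and 7 with TMM, against 12 and 1. The shares of all genes were not counted under TMM. Members held 4 of the 24 most-alike places with Spearman's correlation, against 2, and 9 of the 24 genes were the same.

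Of 176 alternative values, 106 stayed within the interval (or, for counts, within 1.5-fold), 61 moved and 9 reversed. Counts limit C7 and Cfb most, with 123 and 194 UMIs in K14-Cre, and neither gene could be read in the cornified clusters.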
